A study of Mus musculus with 6 samples.

Results

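The glucose and sodium-coupled sugar transporters described here are 10 genes, the facilitative carriers Slc2a1, Slc2a2, Slc2a3, Slc2a4, Slc2a5 and Slc2a9 and the sodium-coupled carriers Slc5a1, Slc5a2, Slc5a9 and Slc5a10. They were chosen by name, with earlier results of these data known, and all 10 were measured among the 19937 genes of the array. Each gene had 1 probe set carrying its symbol alone and 0 probe sets carrying its symbol with others, so no choice between probe sets was needed. Whole-kidney RNA was compared between 3 NICD1 samples, of genotype Pax8rtTA TREICNotch1, and 3 samples from littermate wild-type controls of genotype normal, with 1 Affymetrix array per sample. In NICD1 mice a reverse tetracycline transactivator under Pax8 control drives an inducible Notch1 intracellular domain in tubule epithelial cells, and the controls are given as wild type, so the effects of either transgene alone are not separated from those of Notch1. Age, sex and the agent, dose and length of induction are not given in the sources used here. The labels number 3 samples in each group without stating that each came from a separate animal, so the p-values measure the spread between these samples.

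Filtered glucose is taken back by the proximal tubule in a relay of membrane carriers. Slc5a2 (SGLT2) on the apical side and Slc2a2 (GLUT2) on the basolateral side carry most of it in the early segments, and Slc5a1 (SGLT1) and Slc2a1 (GLUT1) carry what is left in later segments. Slc5a10 (SGLT5) and Slc5a9 (SGLT4) are apical carriers of mannose and related sugars, Slc2a5 (GLUT5) carries fructose, Slc2a9 (GLUT9) is chiefly a urate carrier, Slc2a4 (GLUT4) is the insulin-responsive carrier of muscle and fat, and Slc2a3 (GLUT3) is a high-affinity carrier best known from neurons.

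RefSeq promoter windows (build GRCm38.p6) were listed for 6 of the 10 genes, Slc2a1, Slc2a2, Slc2a5, Slc2a9, Slc5a1 and Slc5a10, as 7 windows of 300 bases from 250 before to 50 after a transcript start. Slc5a2, Slc2a3, Slc2a4 and Slc5a9 are named only. Of these windows, 4 are shown to set genes with a large, a small and an opposite response side by side: Slc5a10 and Slc2a2 have large falls in NICD1 kidneys, Slc5a1 a small fall and Slc2a1 a rise. They lie at chr11:61720750-61721049 on the minus strand, chr3:28697653-28697952, chr5:33103969-33104268 and chr4:119108495-119108794, the last 3 on the plus strand. Capitals mark matches to either of 2 motifs searched on both strands.
Slc5a10: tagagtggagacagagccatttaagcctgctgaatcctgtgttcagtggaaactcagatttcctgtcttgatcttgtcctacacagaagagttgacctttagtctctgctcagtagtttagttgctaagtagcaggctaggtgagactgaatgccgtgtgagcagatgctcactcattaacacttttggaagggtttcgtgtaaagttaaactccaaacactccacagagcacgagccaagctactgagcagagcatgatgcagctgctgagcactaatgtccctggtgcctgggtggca
Slc2a2: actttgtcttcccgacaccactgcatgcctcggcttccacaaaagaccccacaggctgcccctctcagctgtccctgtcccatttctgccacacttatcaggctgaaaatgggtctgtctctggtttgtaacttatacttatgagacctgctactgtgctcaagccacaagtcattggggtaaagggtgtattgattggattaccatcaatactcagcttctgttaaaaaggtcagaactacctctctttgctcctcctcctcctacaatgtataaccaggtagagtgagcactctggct
Slc5a1: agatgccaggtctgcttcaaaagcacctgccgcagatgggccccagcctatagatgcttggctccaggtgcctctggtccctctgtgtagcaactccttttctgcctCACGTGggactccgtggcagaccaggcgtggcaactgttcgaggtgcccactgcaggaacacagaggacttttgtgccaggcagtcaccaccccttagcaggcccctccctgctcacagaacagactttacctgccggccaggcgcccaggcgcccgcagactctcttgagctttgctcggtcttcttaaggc
Slc2a1: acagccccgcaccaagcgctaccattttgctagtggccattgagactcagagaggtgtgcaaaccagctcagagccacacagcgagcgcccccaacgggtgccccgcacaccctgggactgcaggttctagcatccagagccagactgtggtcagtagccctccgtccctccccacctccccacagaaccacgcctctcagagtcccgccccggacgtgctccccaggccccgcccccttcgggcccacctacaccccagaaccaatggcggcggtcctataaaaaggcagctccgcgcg
The motifs were GTGGGAA, the core bound by RBPJ, the DNA-binding partner of Notch, and CACGTG, the E-box bound by Myc and ChREBP. The motifs share no overlap here. CACGTG stood 143 bases before the start of Slc5a1. It was in 1 of the 7 windows, and GTGGGAA was in 0 of the 7, so the other 3 windows shown hold no capitals. Over all 32851 windows of the same length, 6.38% held GTGGGAA and 7.15% held CACGTG. A match is a string of letters and no measured site. The windows also differed in CpG content: Slc2a1 had 18 CpG pairs, Slc2a5 15, Slc5a1 10, the 2 Slc5a10 windows 6 and 3, and Slc2a2 and Slc2a9 2 each, beside a median of 7 over all windows.

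Expression values are deposited log2 values after RMA16 normalization, and every difference is NICD1 minus control. Median log2 values per array lay between 5.03 and 5.11 in NICD1 kidneys and between 4.93 and 4.99 in controls, and Notch1 was 12.4-fold higher in NICD1 kidneys. With limma and adjustment over all genes, 32.7% of genes passed adjusted p under 0.05, 17.8% as higher and 14.9% as lower. After centring each array on its median, 41.4% of the calls were higher, against 54.4% without it. Beside this background, 8 of the 10 transporter genes passed, 2 as higher and 6 as lower. Dim genes lower the background share. With the dimmest 40% left out, 51.5% of 11962 genes passed (3290 higher and 2866 lower), and the same 8 transporter genes passed. The NICD1 arrays lay wholly to one side of the control arrays for the same 8 genes, against 43.4% of all genes (23.7% higher and 19.7% lower). Called differences of at least 2-fold were found for 6 of the 10, against 9.95% of all genes, and called falls of at least 8-fold for 3 (Slc5a2, Slc5a10 and Slc2a2), against 0.662%. The median difference of the 10 was -0.84 log2, beside 0.015 for all genes. Of the 4 sodium-coupled genes, 3 fell, 0 rose and 1 did not pass. Of the 6 facilitative genes, 3 fell, 2 rose and 1 did not pass.

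**Figure D1:**
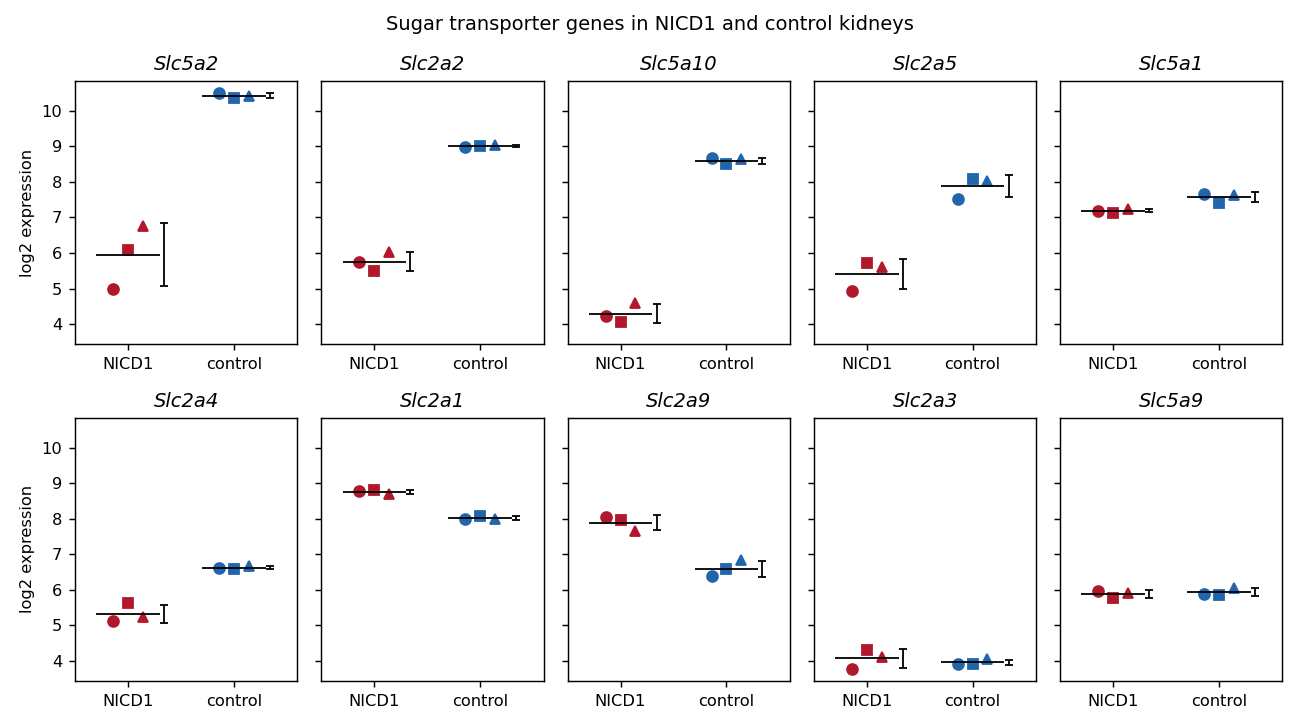
Log2 expression of the 10 transporter genes (y axis, a panel per gene) in 3 NICD1 arrays (red, left) and 3 control arrays (blue, right). Circles, squares and triangles are replicates 1, 2 and 3, horizontal lines are means and bars are 1 SD. Slc5a2, Slc2a2, Slc5a10 and Slc2a5 lie well below their controls, Slc5a1 only just below, and Slc2a1 and Slc2a9 above. Heights of different genes come from different probes and have no order.

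The apical carrier of the early proximal tubule, Slc5a2, and the mannose carrier Slc5a10 had the 2 largest falls among the 10. Their order is not firm: without NICD1 replicate 1 the difference of Slc5a2 was -4.004 log2 and that of Slc5a10 -4.27. The log2 level of Slc5a2 was 4.995, 6.10 and 6.75 in NICD1 kidneys, against 10.50, 10.36 and 10.43 in controls. All 3 NICD1 values lay far below the controls, but they were spread over 1.76 log2, while the controls were spread over 0.145. The lowest, in NICD1 replicate 1, was under the median of its array (5.03), where RMA compresses differences. The fall was 22.3-fold (-4.48 log2, 95% interval -5.28 to -3.68, adjusted p = 1.41e-05). Its basolateral partner Slc2a2 stood at 5.75, 5.48 and 6.02 in NICD1 kidneys, against 8.99, 9.003 and 9.05 in controls. That fall was 9.60-fold (-3.26 log2, 95% interval -3.57 to -2.95, adjusted p = 5.41e-07), with little spread in the controls (SD 0.029) and more in NICD1 (SD 0.27).

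Slc5a1 and Slc2a1, named above for later segments, moved far less, and in opposite directions. Whole-kidney values do not assign either change to a segment. All 5 markers of the last proximal tubule segment, described below, fell, by unequal amounts (-7.30 to -1.26 log2, median -3.32). Slc5a1 was at 7.18, 7.14 and 7.23 in NICD1 kidneys, against 7.67, 7.41 and 7.63 in controls. The groups did not overlap, and the gap between the highest NICD1 and the lowest control array was narrow. Slc5a1 fell by 0.39 log2 (1.31-fold, 95% interval -0.63 to -0.15, adjusted p = 0.0189). This call was lost without NICD1 replicate 2 (-0.37, adjusted p = 0.0631), without control replicate 1 (-0.34, adjusted p = 0.0652) and without control replicate 3 (-0.36, adjusted p = 0.0723), and over all alternatives the adjusted p ran between 0.00498 and 0.0723. Slc2a1, the widely expressed basal glucose carrier, was at 8.78, 8.79 and 8.70 in NICD1 kidneys and 7.98, 8.08 and 7.998 in controls. Both groups were tight (SD 0.052 in NICD1, 0.054 in controls) and did not overlap. The rise was 1.66-fold (0.73 log2, SE 0.095, adjusted p = 0.000293).

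Within single arrays, the difference in log2 value between a pair of genes shows whether they changed unequally, and 4 pairs were compared. Slc2a1 minus Slc2a2 was 3.03, 3.31 and 2.68 in NICD1 kidneys, against -1.01, -0.92 and -1.05 in controls, a shift of 3.997 log2 towards Slc2a1. Slc5a1 minus Slc5a2 was 2.19, 1.04 and 0.47 in NICD1 kidneys, against -2.83, -2.94 and -2.80 in controls, a shift of 4.09 log2 towards Slc5a1. For the early partners, Slc5a2 minus Slc2a2 shifted by -1.22 log2, with NICD1 arrays between -0.75 and 0.74 and controls between 1.35 and 1.51. In NICD1 kidneys Slc5a2 lay at 4.995 to 6.75 and Slc2a2 at 5.48 to 6.02, beside array medians of 5.03 to 5.11. RMA compresses differences at such levels, so for this pair an unequal change and unequal compression cannot be told apart. Slc5a1 minus Slc2a1 shifted by -1.12 log2, with NICD1 arrays between -1.65 and -1.47 and controls between -0.67 and -0.31. The groups did not overlap for any of the 4 pairs. The two-sided exact permutation p was 0.1 for each, also after Benjamini-Hochberg adjustment over the 4, and 0.1 is the smallest that 3 against 3 arrays can give. The shift of Slc5a2 against Slc2a2 was -0.74 without NICD1 replicate 1, the array with the lowest Slc5a2.

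**Figure D2:**
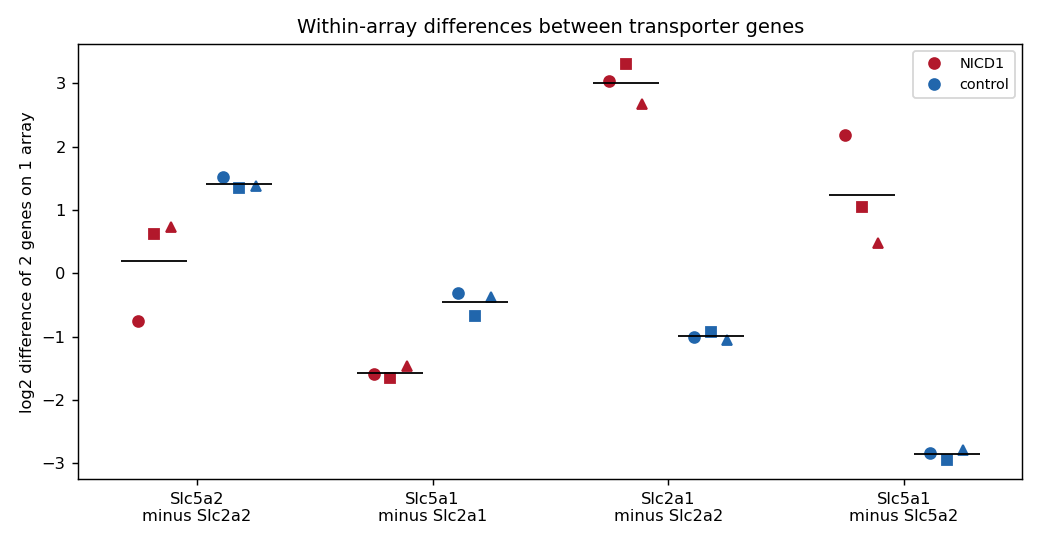
Log2 difference between a pair of transporter genes on the same array (y axis) for 4 pairs, in NICD1 (red, left of each pair) and control arrays (blue, right). Points are arrays, with circles, squares and triangles for replicates 1, 2 and 3, and lines are group means. The widest separations are the shifts of 3.997 and 4.09 log2 for Slc2a1 minus Slc2a2 and Slc5a1 minus Slc5a2, and only the shift between groups is interpretable, not the sign.

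The carriers of mannose and fructose also differed among themselves. Slc5a10 stood at 4.24, 4.05 and 4.60 in NICD1 kidneys, against 8.66, 8.49 and 8.63 in controls. It fell 19.7-fold (-4.30 log2, SE 0.14, adjusted p = 1.52e-07), with all 3 NICD1 values under the median of their arrays, where RMA compresses differences. Slc5a9 was at 5.96, 5.75 and 5.91 in NICD1 kidneys, against 5.88, 5.86 and 6.05 in controls. The groups overlapped, and the difference was -0.056 log2 with a 95% interval of -0.30 to 0.19 (adjusted p = 0.765). The fructose carrier Slc2a5 was at 4.93, 5.71 and 5.61 in NICD1 kidneys, against 7.53, 8.09 and 8.03 in controls. The value of NICD1 replicate 1 was under its array median. Both groups were spread, over 0.78 log2 in NICD1 and 0.57 log2 in controls, and the fall was 5.53-fold (-2.47 log2, SE 0.22, adjusted p = 3.08e-05).

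Slc2a9, whose product carries urate across the basolateral and apical membranes, had the larger of the 2 rises. Its log2 level was 8.05, 7.97 and 7.65 in NICD1 kidneys and 6.37, 6.57 and 6.83 in controls. The lowest NICD1 array was still above the highest control array, and the rise was 2.46-fold (1.30 log2, SE 0.15, adjusted p = 0.000144). After centring of the arrays Slc2a9 and Slc2a1 remained higher, by 1.19 and 0.63 log2. Slc2a4 was at 5.12, 5.62 and 5.22 in NICD1 kidneys, against 6.62, 6.57 and 6.66 in controls. The controls were tightly grouped and the fall was 2.45-fold (-1.30 log2, SE 0.14, adjusted p = 7.98e-05). Slc2a3 was at 3.77, 4.32 and 4.10 in NICD1 kidneys, against 3.91, 3.91 and 4.04 in controls. All 6 of its values lay under the array medians, the groups overlapped, and the difference was 0.11 log2 (95% interval -0.21 to 0.43, adjusted p = 0.638). No detection calls accompany the values, so whether Slc2a3 was detected is not known.

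**Figure D3:**
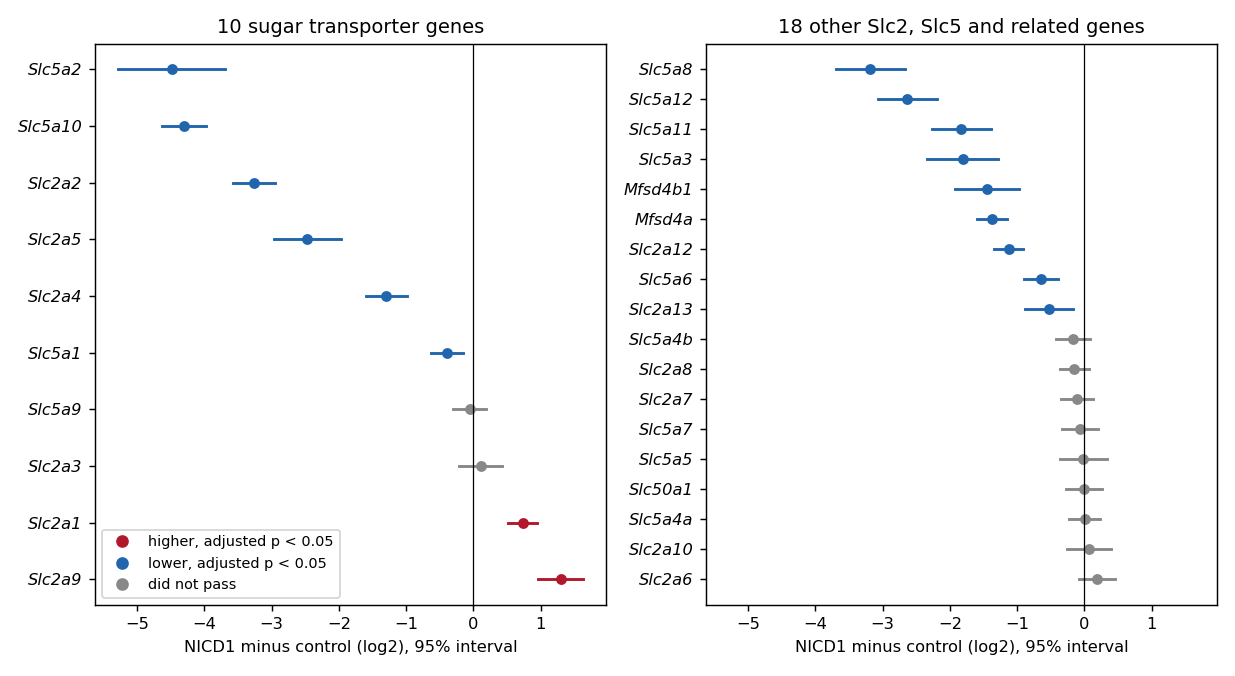
Difference NICD1 minus control in log2 (x axis) with its 95% interval for the 10 transporter genes (left) and 18 other Slc2, Slc5 and related genes (right). Blue genes were lower and red genes higher at adjusted p under 0.05, and grey genes did not pass. The left panel runs from -4.48 for Slc5a2 to 1.30 for Slc2a9, and the right panel has 9 lower and 0 higher genes.

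Markers of the proximal tubule, the segment that holds most of these carriers, were lower in the same NICD1 kidneys. All 7 measured proximal tubule markers, among them the endocytic receptors Lrp2 and Cubn and the phosphate carrier Slc34a1, fell. Over all genes, 14.9% passed as lower. The median difference of these markers was -4.01 log2. Their summed linear level, in arbitrary array units, ranged over 1264 to 2282 in NICD1 kidneys and 15773 to 16476.5 in controls. All 5 markers of the S3 segment, the last part of the proximal tubule, also fell, with a median of -3.32 log2. The falls were unequal: Slc3a1 (-1.26 log2) and Atp11a (-1.96 log2) stayed above the array medians in every NICD1 array. NICD1 values of Slc22a7, Slc7a13 and Acox2, which fell more, lay wholly or partly under those medians. The part of these marker falls in the transporter results was not tested. In whole-kidney RNA, fewer proximal tubule cells and less RNA per cell cannot be told apart.

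The 6 fallen genes were not lowest in the same NICD1 array. NICD1 replicate 1 held the lowest value of Slc5a2, Slc2a5 and Slc2a4, and NICD1 replicate 2 that of Slc2a2, Slc5a10 and Slc5a1. NICD1 replicate 3 held the highest NICD1 value of 4 of the 6, and the lowest of 0. Mean log2 levels of the proximal tubule markers were 6.90, 7.30 and 7.57 in NICD1 replicates 1 to 3, against 10.87 to 10.99 in controls. Of the 6 fallen genes only Slc5a2 had this order, and an order of 3 arrays can match by accident. Lrp2, Cubn, Slc34a1 and Slc22a6 held it, while Gatm, Slc6a19 and Aqp1 did not. Mean log2 levels of the S3 markers were 6.05, 6.58 and 6.86 in NICD1 replicates 1 to 3, against 10.24 to 10.45 in controls. Without NICD1 replicate 3 the difference of Slc5a2 was -4.88 log2, the farthest from 0 of the leave-one-out values.

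**Figure D4:**
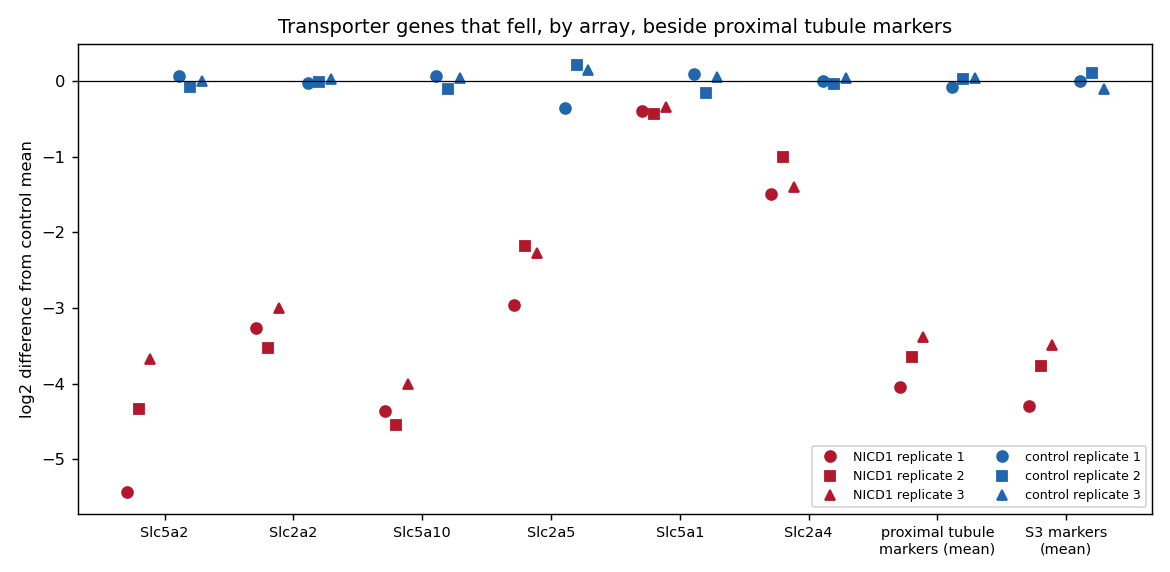
Log2 difference of each array from the control mean (y axis) for the 6 transporter genes that fell and for the mean of the 7 proximal tubule and 5 S3 markers. NICD1 arrays are red (left) and control arrays blue (right), with a symbol per replicate number. NICD1 arrays of Slc5a2 run from -5.43 to -3.68, a wider spread than for Slc2a2 (-3.53 to -2.99) or Slc5a1 (-0.43 to -0.35).

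Markers of other cells that can carry Slc2a1, Slc2a3 or Slc2a4 moved in part. Over all genes, 17.8% passed as higher and 14.9% as lower, so 1 or 2 calls in lists this short do not show that a cell type changed. Of 6 macrophage markers 5 rose, and the summed level of the 6 was 809 to 1482 in NICD1 kidneys and 273 to 287 in controls. The other, Csf1r, made up 54.5% of the control sum and did not pass (-0.049 log2, adjusted p = 0.842). The control values of Itgam, Cd68 and Adgre1 lay under the array medians. Of 5 neutrophil markers 0 passed, with summed levels of 62.4 to 64.4 in NICD1 kidneys and 60.3 to 65.6 in controls. Of 4 adipocyte markers 0 passed, with 78.4 to 104 in NICD1 kidneys and 70.9 to 122 in controls. Of 5 endothelial markers 3 fell and 0 rose (214 to 453 in NICD1, 717 to 745 in controls), and of 3 erythroid markers 1 fell and 0 rose (39.8 to 48.2 in NICD1, 59.8 to 117 in controls). All neutrophil markers, the adipocyte markers Adipoq and Lep and the erythroid markers Epb42 and Rhd lay under the median of every array. For these dim markers, a missed call does not show that the cells were unchanged. Of 4 smooth muscle markers 2 rose and 0 fell (459 to 929 in NICD1, 322 to 464 in controls), and of 3 podocyte markers 1 rose and 2 fell (125 to 172 in NICD1, 278 to 312 in controls). Of 4 thick limb and distal tubule markers 3 fell and 1 rose (5933 to 6215 in NICD1, 8139 to 8809 in controls). A summed level is carried by its brightest probe sets: Umod, the thick limb marker that rose, made up 89.4% of the last sum in NICD1 kidneys and 51.5% in controls, and Lyz2 made up 60.3% of the macrophage sum in NICD1 kidneys. Their part in the differences of Slc2a1, Slc2a4 and Slc2a9 was not tested.

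Other genes of the Slc2 and Slc5 families and further sugar carriers fell or did not pass. Among the 18 measured genes 9 fell, 0 rose and 9 missed the threshold, and the median was -0.35 log2, beside 17.8% higher and 14.9% lower over all genes. Several of the fallen genes are known chiefly for substrates other than glucose. Slc5a8, a sodium-coupled carrier of lactate and other monocarboxylates, fell by 3.18 log2, and its relative Slc5a12 fell by 2.63 log2. Of the myo-inositol carriers, Slc5a11 fell by 1.83 log2 and Slc5a3 fell by 1.81 log2. Slc2a12, a facilitative glucose carrier, fell by 1.12 log2 with 5.31, 5.38 and 5.47 in NICD1 kidneys and 6.51, 6.53 and 6.49 in controls, Mfsd4a by 1.37 log2, and Mfsd4b1, known from rat kidney as a sodium-glucose carrier, by 1.45 log2. Slc50a1, a sugar carrier of the SWEET family, was at 7.77, 7.68 and 7.45 in NICD1 kidneys and 7.53, 7.73 and 7.66 in controls.

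Regulators and partners of these carriers moved both ways. Among the 15 measured genes 3 rose, 6 fell and 6 missed the threshold, and the median was -0.27 log2, beside 17.8% higher, 14.9% lower and a median of 0.015 over all genes. Pdzk1ip1 (MAP17), a small membrane protein that activates SGLT2, was at 9.09, 8.83 and 9.15 in NICD1 kidneys, against 9.83, 9.64 and 9.77 in controls, and it fell by 0.72 log2 (adjusted p = 0.00115). Hnf4a, a transcription factor of proximal tubule identity, fell by 1.33 log2, with 8.03, 9.13 and 8.96 in NICD1 kidneys and 10.002, 10.04 and 10.07 in controls. Txnip, which promotes removal of GLUT1 from the membrane, rose by 0.92 log2, and its relative Arrdc4 rose by 0.70 log2. Mlx, the partner with which ChREBP binds the E-box, fell by 1.12 log2. The Rab GTPase-activating proteins Tbc1d4 and Tbc1d1, which act in GLUT4 traffic, moved apart: Tbc1d4 rose by 1.28 log2 and Tbc1d1 fell by 0.75 log2.

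Genes that act on the carried sugars or in glucose release mostly fell. Besides enzymes, the list holds the transporter Slc37a4 and the regulatory protein Gckr. Among the 13 measured genes 9 fell, 2 rose and 2 missed the threshold, with a median of -1.497 log2, beside 17.8% higher and 14.9% lower over all genes. G6pc, the catalytic subunit of glucose-6-phosphatase, which releases free glucose for Slc2a2 to export, was at 5.25, 6.33 and 6.04 in NICD1 kidneys, against 11.20, 10.54 and 10.78 in controls, a fall of 31.4-fold (-4.97 log2, adjusted p = 1.92e-06). Khk, the fructokinase that acts on fructose after uptake, was at 7.08, 7.49 and 7.68 in NICD1 kidneys, against 10.28, 10.79 and 10.71 in controls (-3.18 log2, adjusted p = 2.77e-06). The gluconeogenic enzyme Fbp1 fell by 3.68 log2 and Galm, which interconverts the anomers of hexose sugars, by 1.497 log2. The 2 genes that rose were the hexokinases Hk2 (1.02 log2) and Hk1 (0.87 log2, and 0.57 log2 as the mean over its probe sets), which phosphorylate glucose on entry.

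The genes nearest in pattern were found by the distance between log2 values over the 6 arrays, each gene set to its control mean. Nearest to Slc5a2 were Eci3 at a distance of 0.57 log2, Ak4 at 0.58 and Mogat1 at 0.60. Each was spread in NICD1 kidneys with its lowest value in replicate 1, as Mogat1 was at 4.22, 5.76 and 6.60, against 9.76, 10.16 and 10.07 in controls. They were picked by distance to Slc5a2 on these same arrays, so this likeness largely follows from the choice. Nearest to Slc2a9 were Tut4 at 0.21, Oxr1 at 0.25 and Mid1 at 0.25. Tut4 was at 8.18, 7.84 and 7.66 in NICD1 kidneys and 6.32, 6.65 and 6.79 in controls. The 6 arrays form 2 groups, so a small distance requires above all a similar difference between them.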

How the data were processed

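Per the labels' protocols, TRIzol RNA was biotin-labelled with the Affymetrix one-cycle kit, and the authors normalized the arrays in GeneSpring with RMA16. The deposited values are on the log2 scale, 1 per probe set, and RMA understates differences of dim genes. The version of that software is not stated in the labels.

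Of 34760 probe sets, 6573 numbered below the lowest annotated one were left out. Each gene took its single-symbol probe set with the highest mean over the 6 arrays (19937 genes). The test was limma 3.58.1, run in R 4.3.3 (moderated, two-sided, Benjamini-Hochberg over all genes, threshold 0.05). In simulated data with independent noise, it recovered 16.4% of planted changes of 0.5 log2, 79.1% of 1 log2 and 95.5% of 2 log2. Small changes were thus mostly missed. Far fewer genes were changed there than were called here, so these shares need not hold for these arrays. The number of arrays limits the precision.

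The transporter genes, gene and marker lists were chosen with earlier results of these data known. Of each of the 3 carrier, regulator and enzyme lists, the 4 genes of lowest p were named, with the 3 genes nearest to the largest fall and rise. Slc5a11, Slc5a3, Mfsd4b1, Slc50a1, Pdzk1ip1, Hnf4a, Arrdc4, Hk1, Hk2 and the markers in the text were named after their values were seen. Counts cover the measured members of each list; some listed genes and 1 listed motif are not reported here. Alternatives were other scalings, probe set means, a filter on the dimmest 40% of genes, other variance models, array weights, all probe sets, a replicate block and leaving out each array.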

Additional observations from a re-analysis of the deposited data

How the results depend on the processing

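Of the 39 single genes recomputed, 36 kept their direction and their side of the threshold under every alternative run; the exceptions were Slc5a1, Slc2a3 and Slc5a9. Slc5a1 lost its call in the 3 leave-one-out fits named above, so between 7 and 8 of the 10 transporter genes passed, 5 or 6 as lower and 2 as higher. The sign of Slc2a3 turned without NICD1 replicate 2 (-0.015 log2), and that of Slc5a9 turned without NICD1 replicate 2 (0.0044) and without control replicate 3 (0.0036), while leaving out single arrays gave up to 0.26 for Slc2a3 and down to -0.10 for Slc5a9; both genes missed the threshold in every fit. Slc2a3 had no value once the dimmest 40% of genes were left out. Over all genes, 6529 passed, and leaving out single arrays gave 5275 to 6278. Centring the arrays moved the median difference of all genes to -0.091 log2, and the calls to 2619 higher and 3710 lower. The labels state no pairing by replicate number. Deviations of same-numbered arrays from their group means correlated at -0.069, -0.012 and -0.070 over all genes. Those of different-numbered arrays correlated at -0.013 to 0.072. With 3 arrays in each group, these values cannot decide whether the numbers pair the samples. With the number as a replicate block, 5981 genes and 8 of the 10 transporter genes passed. Without detection calls, signal over background is unknown. This limits Slc2a3, the NICD1 values of Slc5a10, Slc5a2 and Slc2a5 in NICD1 replicate 1, and the dim cell markers named above.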
